A study of Mus musculus with 9 samples.

Results

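The 10 genes described here encode MHC class II antigen presentation proteins and the costimulatory molecules that accompany them on macrophages. They are H2-Aa, H2-Ab1, H2-Eb1, Cd74, H2-DMa, Ciita, Cd40, Cd80, Cd86 and Cd274. Members were all rows of the deposited count table that carried one of these names, with rows of one name summed, so they are 10 of the 24061 gene names in the table.

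The RNA came from bone-marrow-derived macrophages (BMDMs) of female C57BL/6J mice aged 8 to 10 weeks, grown from marrow in L-cell conditioned medium and kept without serum before treatment on day 8. The RNA was taken in 3 conditions, and all 9 libraries passed through 3 hr of vehicle or agonist. Veh received DMSO and no LPS, LPS received DMSO and then 10 ng/mL lipopolysaccharide for 2 hr, and T0+LPS received 500 nM T0901317 (T0) before and during the same LPS exposure. LPS is the bacterial ligand of Toll-like receptor 4, and T0 is a synthetic agonist of the liver X receptors (LXRs), which also acts on other nuclear receptors in some cell types. Each group held 3 libraries from separately differentiated cultures, no T0 group without LPS was analysed here, and no LXR-deficient cells were part of these groups.

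MHC class II molecules show peptides from endocytosed proteins to CD4+ T cells. The alpha and beta chains assemble with the invariant chain (Cd74), which blocks the groove until proteases trim it and H2-DM exchanges the last fragment for peptide. Transcription of all these genes depends on the coactivator CIITA, recruited by factors bound to the conserved X and Y boxes of class II promoters, and in macrophages Ciita is best known as a target of interferon gamma. A T cell also needs a second signal, given by CD80 and CD86 through CD28, while CD40 receives CD40 ligand from the T cell and CD274 (PD-L1) restrains the T cell through PD-1.

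All 3 costimulatory genes that could be tested, Cd80, Cd86 and Cd274, rose with LPS, by 1.41-fold to 2.79-fold. Of the 5 class II chain and chaperone genes H2-Ab1 alone passed the test, at 1.21-fold, a call that was not kept on library totals. No gene of the set passed the test when T0 was added. In all, 4 of the 9 members that could be tested were higher in LPS than in Veh and 0 were lower, against 2 higher and 3 lower on library totals, where Cd86 also missed the threshold. Of all 9559 genes tested, 32.9% were called higher and 31.2% lower. In T0+LPS against LPS, 0 of 9 tested members were called higher and 0 lower by edgeR's quasi-likelihood test, where 1.35% of 9348 genes were called higher and 1.83% lower. DESeq2 and limma-voom also called 0 members there, while edgeR with no filter on low counts called 4 higher and 1 lower. With the filter, 2 members, Cd74 and Cd80, had an unadjusted p under 0.05.

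Libraries held 13299044 to 16467983 counts. Levels are given as CPM (counts scaled to a common library size) with trimmed mean of M-values (TMM) factors over the 9 libraries, and 1 read was worth 0.0535 to 0.0793 CPM. The treatments were visible in control genes outside the set. Abca1, an LXR-induced cholesterol transporter, stood at 723 to 733 CPM in Veh, 1661 to 1961 in LPS and 4915 to 5283 in T0+LPS. Il1b, an LPS-induced cytokine, stood at 0.695 to 3.07, 1005 to 1276 and 755 to 917 CPM. Markers of macrophages summed to 26862 to 36607 CPM in every library, of which Lyz2 made up 18975 CPM or more. Csf1r, the receptor on which these cells depend, was at 3618 CPM or more. Of the 7 markers that could be tested, 4 were called higher and 2 lower with LPS. The shares over all genes were 32.9% higher and 31.2% lower. Fcgr1 went from 107 to 146 CPM in Veh to 63.0 to 78.2 CPM in LPS, and Mertk from 60.4 to 61.9 CPM to 34.0 to 36.1 CPM. Itgam has 3 unshared bases and could not be measured.

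The count table limits what can be read for 3 of the 10 genes. Rows of the table are transcripts, and reads on bases that more than 1 row covers were not counted, so a gene with several transcripts is measured on its unshared bases. H2-Aa, H2-Ab1, H2-Eb1, H2-DMa, Cd80, Cd86 and Cd274 have 1 row each and were measured over 1069 to 3638 bases. Cd74 was measured only on 192 bases, the exon that its longer transcript holds and its shorter one lacks, so its values follow that transcript and not all Cd74 mRNA. The 686 unshared bases of Ciita are its 3 alternative first exons. Cd40 was measured on 101 bases that 1 transcript row holds and that lie between exons in its other 4 transcripts. On these bases an intron-retaining transcript and unspliced Cd40 RNA cannot be told apart.

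The members lie in several places of the mouse genome (mm10). H2-DMa (chromosome 17, 34122832 to 34139101, plus strand), H2-Ab1 (34263227 to 34269418, plus), H2-Aa (34282751 to 34287771, minus) and H2-Eb1 (34305867 to 34316674, plus) sit together in the MHC. Ciita (10480072 to 10527564, plus), Cd86 (36603869 to 36666077, minus) and Cd80 (38458933 to 38486932, plus) are all on chromosome 16. Cd274 is on chromosome 19 (29367438 to 29388094, plus) and Cd40 on chromosome 2 (165055636 to 165071654, plus).

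The promoters of an alpha and a beta chain gene are shown since the class II factors named below act at their boxes. RefSeq promoter windows (GRCm38.p6, 250 bases before to 50 after the start) were at hand for 5 of the 10 members. They are written 5′ to 3′ on the gene's strand, with capitals marking the Y box CTGATTGG and, in H2-Aa, the cyclic AMP response element TGACGTCA. Both strands were searched, and the motifs did not overlap.
H2-Aa promoter (chr17:34287774-34288073, minus strand): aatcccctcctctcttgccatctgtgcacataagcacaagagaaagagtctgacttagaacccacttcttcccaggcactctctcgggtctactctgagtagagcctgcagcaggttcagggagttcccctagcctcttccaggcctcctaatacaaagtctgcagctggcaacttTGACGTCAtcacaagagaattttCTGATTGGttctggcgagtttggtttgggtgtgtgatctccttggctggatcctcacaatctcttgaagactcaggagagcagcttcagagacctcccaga
H2-Eb1 promoter (chr17:34305617-34305916, plus strand): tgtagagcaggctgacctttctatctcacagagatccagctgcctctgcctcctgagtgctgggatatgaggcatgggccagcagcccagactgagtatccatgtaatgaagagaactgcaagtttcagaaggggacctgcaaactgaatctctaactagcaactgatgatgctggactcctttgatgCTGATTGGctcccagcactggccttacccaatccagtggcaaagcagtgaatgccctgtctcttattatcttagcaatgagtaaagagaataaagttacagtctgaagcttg

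The Y box is the site of the trimeric factor NF-Y. It began 51 bases before the start of H2-Aa and 62 bases before that of H2-Eb1, and 15 bases lay between the Y box of H2-Aa and its response element, which the X2 box of class II promoters resembles. The windows of Cd80, Cd274 and both starts of H2-DMa held neither motif in these exact letters. Of all 32851 windows, 4.1% held the Y box and 1.79% the response element. Among 5 other class II genes with a window, the exact letters of the Y box were found in H2-Eb2 and H2-Oa. A Y box with other letters would be missed by this search. The windows of H2-DMb1, H2-DMb2 and H2-Ob held the shorter GATTGG, as did a window of H2-DMa. The share of all windows with these shorter letters was not counted, so whether they mark a Y box was not tested.

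Per kilobase of unshared bases, the class II chains were the highest of the set in resting cells. In Veh, H2-Aa stood at 266.6 ± 8.11 (SD, n = 3) CPM per kb, H2-Ab1 at 241 ± 9.09 and the Cd74 exon at 221 ± 20.1. H2-Eb1 followed at 109 ± 0.415, Cd274 at 40.6 ± 0.496, H2-DMa at 26.6 ± 1.42 and Cd86 at 6.28 ± 0.748 CPM per kb. Cd80 (2.09 ± 0.293), the first exons of Ciita (1.77 ± 0.441) and the 101 bases of Cd40 (0.218 ± 0.378) were lowest. These values do not place the whole mRNA of Ciita or Cd40 in the order. The Veh libraries of H2-Ab1 and the Cd74 exon overlapped on this scale, as did those of Cd80 and Ciita, and the other neighbours in this order did not.

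H2-Aa and H2-Ab1 encode the chains of I-A, the class II molecule that C57BL/6 mice display. H2-Aa was at 285, 294 and 276 CPM in Veh 1 to 3, at 272, 347 and 279 CPM in LPS 1 to 3, and at 456, 294 and 300.4 CPM in T0+LPS 1 to 3. LPS 2 and T0+LPS 1 stood above the rest, and all groups overlapped. Its log2 fold change was 0.07 (SE 0.07, edgeR adjusted p = 0.373) for LPS over Veh and 0.23 (SE 0.13, adjusted p = 0.499) for T0+LPS over LPS, the latter with a 95% interval of -0.05 to 0.50.

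H2-Ab1 was at 299.7, 286 and 278 CPM in Veh, 332, 402 and 309.7 CPM in LPS, and 495, 345 and 359 CPM in T0+LPS. Every LPS library lay above every Veh library, a separation found in 67.3% of all genes tested. The rise was 21.0%, with a log2 fold change of 0.27 (SE 0.07, edgeR adjusted p = 0.00302). T0+LPS overlapped LPS, at a log2 fold change of 0.20 (SE 0.11, 95% interval -0.04 to 0.44, edgeR adjusted p = 0.480). On library totals without TMM factors, a scaling that lowers the median of all genes to -0.28 on the log2 scale, H2-Ab1 was at -0.0079 in LPS over Veh, so its rise is relative to the bulk of genes. H2-Aa (-0.21), Cd74 (-0.40) and H2-DMa (-0.39) were called lower in LPS on that scale.

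H2-Eb1 encodes the beta chain of I-E, whose alpha chain gene is defective in this strain. The alpha chain pseudogene H2-Ea-ps held 0 reads in all 9 libraries, while H2-Eb1 was at 181, 182 and 183 CPM in Veh. It was at 190.1, 242 and 180.8 CPM in LPS and at 322, 213 and 208 CPM in T0+LPS. LPS 2 and T0+LPS 1 were again the highest of their groups, and LPS 3 lay below all Veh libraries. Its log2 fold change for LPS over Veh was 0.17 (SE 0.08) and missed the threshold at an edgeR adjusted p of 0.0670, but passed it without LPS 1 (0.22, adjusted p = 0.0415) or without LPS 3 (0.24, adjusted p = 0.00555). For T0+LPS over LPS it was 0.28 (SE 0.14, 95% interval -0.01 to 0.57, edgeR adjusted p = 0.392).

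Cd74 lies apart from the MHC, on chromosome 18 (60803849 to 60812652, plus strand). Its longer transcript encodes the invariant chain form with a thyroglobulin-type domain, which binds cathepsins. The exon that sets this form apart was at 43.7, 45.6 and 38.2 CPM in Veh, 35.2, 43.7 and 38.5 CPM in LPS, and 59.8, 39.5 and 46.0 CPM in T0+LPS. LPS overlapped Veh, at a log2 fold change of -0.11 (SE 0.08, edgeR adjusted p = 0.235). T0+LPS 1 was the highest library and T0+LPS 2 lay inside the LPS range. The difference of T0+LPS from LPS was 0.30 on the log2 scale (SE 0.12, 95% interval 0.05 to 0.56), with an unadjusted p of 0.0229 that became 0.248 once edgeR's values were adjusted over all genes.

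H2-DMa encodes the alpha chain of H2-DM, the peptide exchange factor. It was at 41.4, 45.9 and 44.9 CPM in Veh, 38.9, 45.3 and 37.7 CPM in LPS, and 44.6, 41.9 and 42.1 CPM in T0+LPS. No pair of groups was separated. The log2 fold changes were -0.11 (SE 0.07, edgeR adjusted p = 0.190) and 0.07 (SE 0.07, adjusted p = 0.745). Without LPS 2, both H2-DMa (-0.21, adjusted p = 0.0149) and Cd74 (-0.21, adjusted p = 0.0320) passed the threshold as lower in LPS than in Veh.

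**Figure D1:**
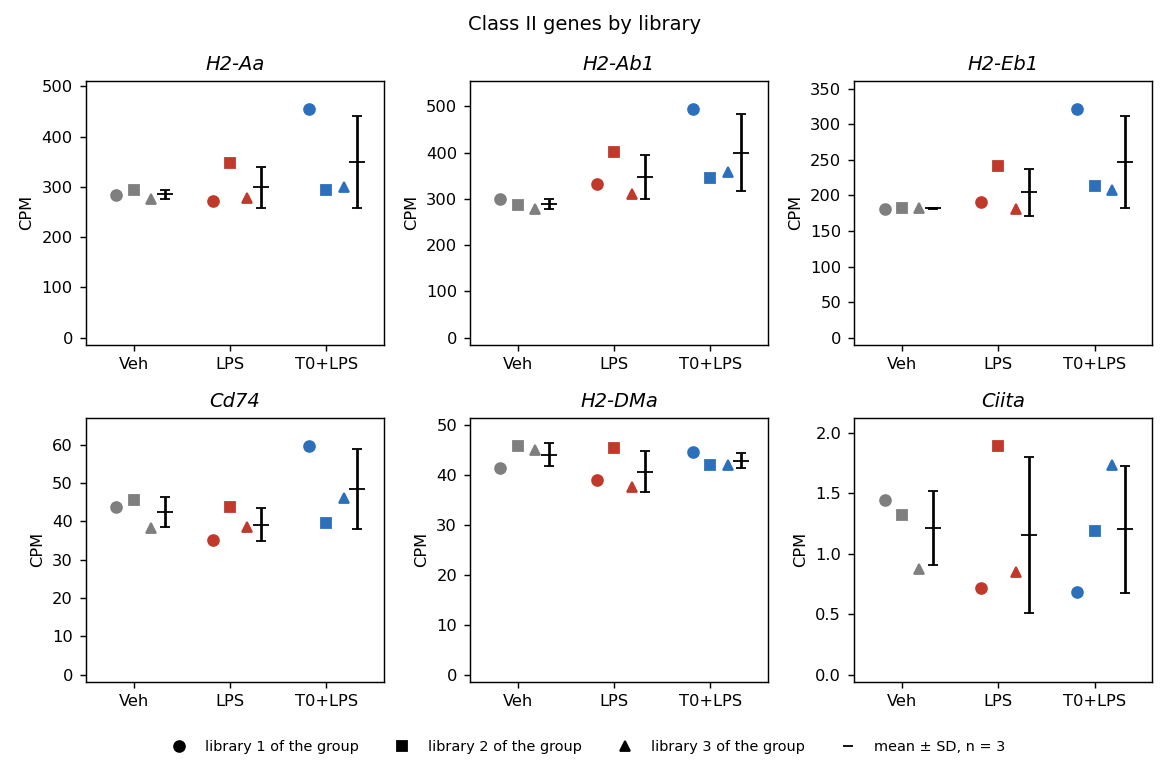
CPM of the 6 class II members in each of the 9 libraries, with the mean ± SD of each group of 3 in black. T0+LPS 1 is the highest library of all 9 for H2-Aa (456 CPM), H2-Ab1 (495), H2-Eb1 (322) and Cd74 (59.8), and the other T0+LPS libraries of the first 3 genes sit within the range of LPS.

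Ciita, the class II transactivator, was counted on the 686 unshared bases of its first exons alone, and few reads fell there in every condition. The exons that its transcripts share were not counted, so Ciita mRNA as a whole was not measured. Its counts were 27, 20 and 15 in Veh, 9, 26 and 11 in LPS, and 9, 17 and 25 in T0+LPS, or 0.685 to 1.89 CPM. The groups overlapped fully, and the log2 fold changes of -0.05 (SE 0.35) and 0.06 (SE 0.40, 95% interval -0.80 to 0.92) have intervals that cover changes of either sign (edgeR adjusted p = 0.906 and 0.974). Of the libraries where the class II chains stood high, T0+LPS 1 had 9 Ciita reads, the lowest level of all 9 in CPM, and LPS 2 had 26 reads, the highest level.

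The 3 first exons of Ciita differ in use between cell types, since each has its own promoter. In genome order they are 355, 247 and 84 bases long. Matched to the known promoters by this order alone, the first would belong to the promoter of dendritic cells and macrophages (pI), the second to that of lymphocytes (pIII) and the third to the interferon gamma promoter (pIV). The first exon held 125 of the 159 reads: 27, 20 and 14 in Veh, 8, 22 and 4 in LPS, and 4, 13 and 13 in T0+LPS. The second exon held 0 reads in each Veh library, 1, 4 and 5 in LPS, and 4, 1 and 5 in T0+LPS. The third exon held 0, 0 and 1 reads in Veh, 0, 0 and 2 in LPS, and 1, 3 and 7 in T0+LPS. As a transcript row, the first exon was fitted alone. Its log2 fold change for LPS over Veh was -0.46 (SE 0.42, edgeR adjusted p = 0.356). The reads of each exon are not scaled to its length, so they do not rank the 3 promoters by use. With so few reads, no test of the other exons is given.

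The class II chains moved together from library to library. This was seen in the values and then ranked, so it is given as a description. Among the 4531 genes with a mean of at least 30 CPM, the 4 largest upward deviations of T0+LPS 1 from its group mean were those of H2-Aa (0.41 on the log2 scale), H2-Eb1 (0.41), H2-Ab1 (0.33) and Cd74 (0.33), where the 99th percentile of all these genes was 0.156. H2-DMb1, which encodes the partner chain of H2-DMa, ranked 9 in that library, at 0.22, while H2-DMa ranked 797, at 0.06.

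LPS 2 showed a smaller shift of the same genes. H2-Eb1 ranked 8 of 4531 there (0.26), H2-Aa 17 (0.22), H2-Ab1 21 (0.22), H2-DMb1 58 (0.17), Cd74 69 (0.16) and H2-DMa 75 (0.16). In Veh, H2-Eb1 was at 181 to 183 CPM, H2-Aa at 276 to 294, H2-Ab1 at 278 to 299.7 and the Cd74 exon at 38.2 to 45.6. The Cd74 exon deviated by -0.15 in Veh 3, below the 1st percentile of -0.127 of that library. T0+LPS 1 and LPS 2 carry different replicate numbers, and the deviations of same-numbered libraries were not correlated.

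Without T0+LPS 1, the T0+LPS over LPS log2 fold changes were -0.0096 for H2-Aa, 0.02 for H2-Ab1, 0.04 for H2-Eb1 and 0.13 for Cd74. Setting aside both T0+LPS 1 and LPS 2, a choice made after the values were seen, left 0 members called in either direction. With no filter on low counts, all 6 libraries kept, these 4 genes were called higher in T0+LPS (edgeR adjusted p = 4.16e-05 to 0.00436) and Cd80 lower (0.0497), with standard errors of 0.05 to 0.14 on the log2 scale.

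**Figure D2:**
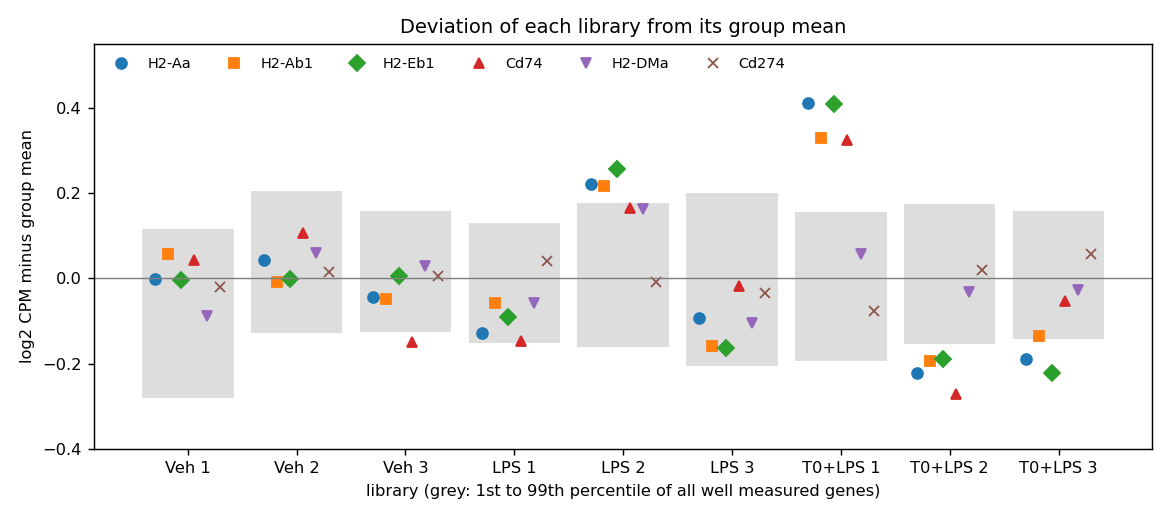
Deviation of each library from the mean of its group, as log2 CPM, for 5 class II genes and Cd274, with the 1st to 99th percentile of 4531 genes of at least 30 CPM in grey. H2-Aa, H2-Ab1, H2-Eb1 and Cd74 rise above the grey band in T0+LPS 1 (0.33 to 0.41) and the first 3 do so in LPS 2 (0.22 to 0.26), while Cd274 stays within it in all 9 libraries.

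Class II genes are also expressed by dendritic cells and B cells, so their markers are given beside these values. Of 10 dendritic cell markers 3 had no read in any library, and the list summed to 3.15 to 5.56 CPM in Veh, 4.63 to 5.39 in LPS and 4.51 to 5.48 in T0+LPS, with 5.48 in T0+LPS 1 and 5.10 in LPS 2. Of the defining ones, Flt3 had 1 read in all 9 libraries together, in T0+LPS 3, and Zbtb46 was at 0.0579 to 0.160 CPM in Veh, 0.386 to 1.19 in LPS and 0.277 to 0.609 in T0+LPS. Of the 2 that could be tested, Xcr1 rose with LPS from 0.107 to 0.463 CPM to 1.19 to 2.33 CPM (log2 fold change 2.90, SE 0.43), and Batf3 fell from 2.67 to 5.04 CPM to 1.85 to 2.69 CPM (-0.84, SE 0.24). Neither was called with T0, and the part of these markers in the class II values was not tested. Clec9a and Kit have 0 and 16 unshared bases and could not be measured.

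The B cell markers Cd79a and Ms4a1 were at or below 0.208 CPM in every library. Cd79b, which makes up most of the B cell sum, was at 0.696 to 2.25 CPM and fell with LPS (log2 fold change -0.66, SE 0.25). The B cell list summed to 1.85 to 2.45 CPM in Veh, 1.00 to 1.60 in LPS and 0.836 to 1.45 in T0+LPS, and 2 of the 6 markers in the table had no read. Cd3e, which defines T cells, had 0 reads, and 3 of 6 T cell markers had no read. Cd8a is among these and has 31 unshared bases, so its lack of reads carries no information. The T cell list summed to 2.64 to 3.37 CPM in Veh, 1.70 to 2.47 in LPS and 1.94 to 2.59 in T0+LPS, nearly all of it Cd4, which fell with LPS (-0.54, SE 0.21). The neutrophil list summed to 1.28 to 1.97 CPM in Veh, 2.93 to 3.93 in LPS and 2.30 to 2.82 in T0+LPS, and its S100a8 rose with LPS (1.22, SE 0.27). Of its 6 markers in the table, 1 had no read, S100a9, which has 3 unshared bases and could not be measured. Ly6g, which defines neutrophils, was not in the count table. In bulk RNA, fewer cells of a type and less RNA per cell cannot be told apart.

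The costimulatory members answered LPS together. CD80, with the higher affinity of the pair for CD28 and CTLA-4, is encoded by Cd80, which was at 4.06, 3.50 and 3.07 CPM in Veh, 12.1, 9.03 and 8.72 CPM in LPS, and 5.79, 7.10 and 9.15 CPM in T0+LPS. LPS and Veh did not overlap, and Cd80 rose 2.79-fold (log2 fold change 1.48, SE 0.16, edgeR adjusted p = 5.85e-07). This was the largest fitted change of the 9 tested members. T0+LPS 1 and 2 lay below all LPS libraries and T0+LPS 3 inside their range. The difference of -0.43 on the log2 scale (SE 0.17, 95% interval -0.79 to -0.07) had an unadjusted p of 0.0223 and an edgeR adjusted p of 0.244.

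Cd86 encodes the other CD28 ligand. It was at 17.1, 13.8 and 17.0 CPM in Veh, 20.7, 22.0 and 24.9 CPM in LPS, and 27.7, 22.8 and 22.0 CPM in T0+LPS. All LPS libraries were above all Veh libraries, with a log2 fold change of 0.49 (SE 0.10, edgeR adjusted p = 0.000356). On library totals it was 0.21 (adjusted p = 0.0690). T0+LPS overlapped LPS, at 0.10 (SE 0.10, 95% interval -0.11 to 0.31, edgeR adjusted p = 0.742).

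Cd274, the gene of PD-L1, gave the most precise values of the set. It was at 146, 149 and 148 CPM in Veh, 313, 303 and 297 CPM in LPS, and 292, 312 and 320.2 CPM in T0+LPS. It rose 2.07-fold with LPS, at a log2 fold change of 1.05 (SE 0.04, edgeR adjusted p = 1.46e-12). For T0+LPS over LPS the log2 fold change was 0.02 (SE 0.05), with a 95% interval of -0.09 to 0.12 (edgeR adjusted p = 0.932). The T0 estimates of Cd80 and Cd274 lay on different sides of 0, but neither gene was called. That of Cd274 reached -0.011 when 1 library was left out, and the difference between these genes was not tested.

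Cd40, measured on 101 bases of 1 transcript row alone, had too few reads for the test across genes, and the level of its other transcripts was not measured. Its counts were 0, 1 and 0 in Veh, 8, 10 and 11 in LPS, and 4, 6 and 6 in T0+LPS. The 3 groups did not overlap in CPM, at up to 0.0661 in Veh, 0.634 to 0.849 in LPS and 0.304 to 0.418 in T0+LPS. The exact permutation test (2-sided) gave p = 0.1 for each comparison, which is the smallest p that 3 against 3 libraries allow. From 29 reads against 1, the LPS level was 37.7 times that of Veh (95% interval 6.25 to 1540, counting error only), and from 16 reads against 29 the T0+LPS level was 0.517 times that of LPS (0.262 to 0.984). With no filter on low counts, Cd40 was called higher in LPS over Veh (edgeR adjusted p = 3.47e-07) but not lower in T0+LPS over LPS (adjusted p = 0.507).

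**Figure D3:**
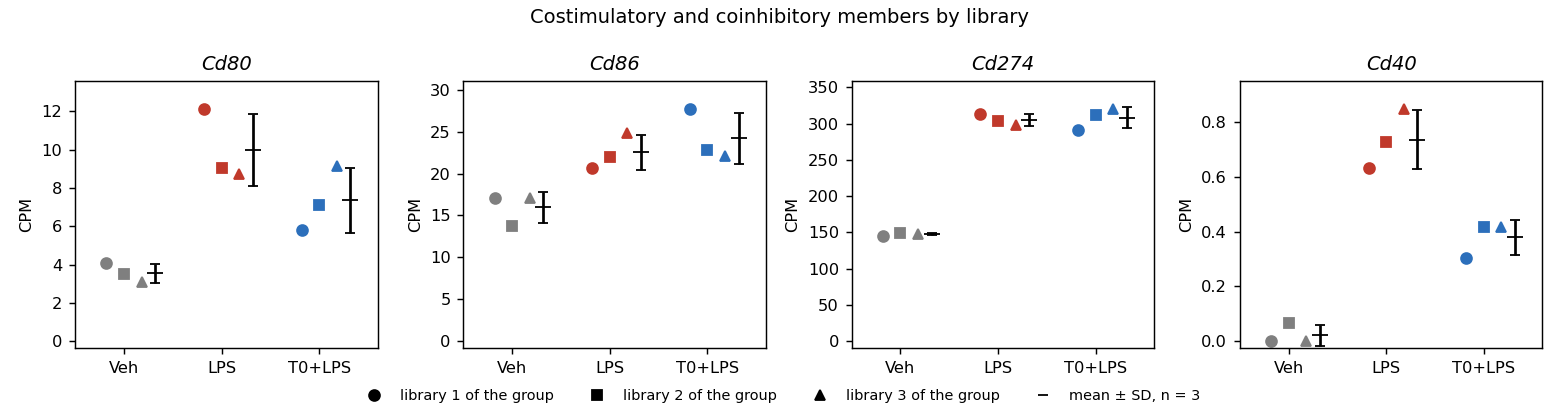
CPM of Cd80, Cd86, Cd274 and Cd40 in each of the 9 libraries, with the mean ± SD of each group of 3 in black. All 4 genes are higher in each LPS library than in each Veh library. The T0+LPS libraries lie below LPS for Cd40 (0.304 to 0.418 against 0.634 to 0.849 CPM), with overlap for the others. Groups did not overlap in 67.3% of all genes tested for LPS against Veh and in 19.1% for T0+LPS against LPS. Cd40 had too few reads for the test across genes.

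**Figure D4:**
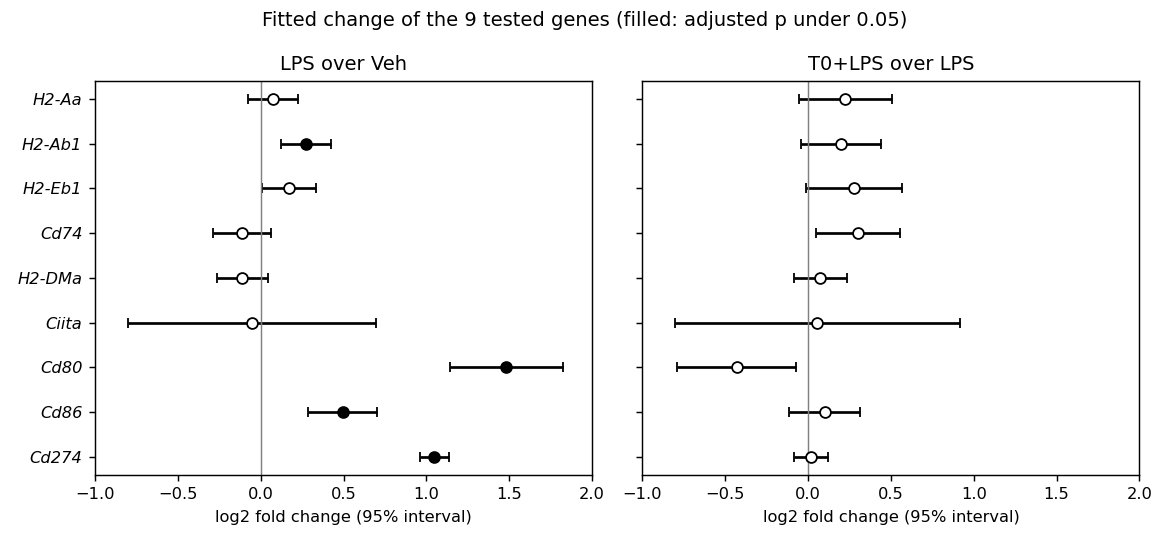
Fitted log2 fold changes with 95% intervals of the 9 tested members, for LPS over Veh on the left and T0+LPS over LPS on the right, with genes of an adjusted p under 0.05 filled. H2-Ab1 (0.27), Cd80 (1.48), Cd86 (0.49) and Cd274 (1.05) are filled on the left, and 0 genes are filled on the right, where Cd74 (0.30) and Cd80 (-0.43) have intervals that leave out 0.

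The 9 tested members had a median log2 fold change of 0.17 for LPS over Veh and 0.10 for T0+LPS over LPS, against 0.00 over all genes tested in each. With T0, 8 of the 9 were above 0 and none of the 9 had groups that were separate, where 50.9% of all genes were above 0 and 19.1% had groups that did not overlap. Without T0+LPS 1, 6 of the 9 were above 0 and their median was 0.04.

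Lists of the same pathway held 67 other genes of antigen presentation, of which 66 were in the table. With LPS, 33 of the 48 tested were called higher and 6 lower, where 32.9% of all genes were called higher and 31.2% lower. With T0 added, 1 of 47 was called higher and 6 lower, where 1.35% of all genes were called higher and 1.83% lower. Of the 7 list genes called with T0, 0 were class II chain, class II processing or class I genes.

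Among the other class II chains and chaperones, 1 of 6 could be tested. H2-DMb1 was at 37.6, 39.4 and 36.5 CPM in Veh, 49.7, 56.8 and 45.4 in LPS, and 61.7, 49.6 and 49.0 in T0+LPS. It rose with LPS by 0.43 on the log2 scale (SE 0.07, edgeR adjusted p = 9.35e-05) and was not called with T0. H2-DMb1 and H2-DMb2 are near copies, so their reads may be split or lost between them. H2-Oa and H2-Ob, which encode the H2-DM modulator H2-O, and H2-Eb2 did not exceed 0.557 CPM in any library.

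Of 8 tested proteases, ubiquitin ligases and other genes that load and clear class II, 0 were called higher and 2 lower with LPS. With T0, 0 were called. The shares over all genes with LPS were 32.9% higher and 31.2% lower. The lysosomal protease legumain (Lgmn) fell by 0.10 and March8, a ligase that removes class II from the surface, fell by 0.22 on the log2 scale with LPS. On library totals 7 of the 8 were called lower with LPS. March1, the other ligase, was at -0.57 (SE 0.38) with LPS and 0.34 (SE 0.39) with T0 from at most 1.44 CPM, too few reads to place its change. The cathepsins Ctsb, Ctsd, Ctsl and Ctsh were not called in either comparison. Ctss, the main invariant chain protease of macrophages, has 3 unshared bases and could not be measured.

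Of the promoter factors and upstream regulators of Ciita, all 12 tested changed with LPS, 8 upward and 4 downward. Of all genes, 32.9% were called higher and 31.2% lower. Rfx5, a subunit of the X box factor, was at 20.0, 19.6 and 20.7 CPM in Veh and 46.4, 48.0 and 47.7 CPM in LPS (log2 fold change 1.24, SE 0.06). Ifngr1, a chain of the interferon gamma receptor, went from 243 to 255 CPM in Veh to 737 to 747 CPM in LPS (1.58, SE 0.04). Prdm1, which encodes the repressor BLIMP-1 of Ciita, went from 55.7 to 58.3 CPM to 230 to 257 CPM (2.07, SE 0.05). Irf8, a myeloid lineage factor that also acts at Ciita pI, fell with LPS from 432, 446 and 430.1 CPM to 177, 171 and 167 CPM (-1.34, SE 0.04).

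T0 moved Irf8 and Prdm1 the other way. Irf8 was at 254, 254 and 260.2 CPM in T0+LPS, above every LPS library and below every Veh library, and rose by 0.58 on the log2 scale over LPS (SE 0.05, edgeR adjusted p = 1.18e-06). Prdm1 was at 207, 211 and 202 CPM, a log2 fold change of -0.22 (SE 0.05, edgeR adjusted p = 0.0315). The fold change stayed between -0.25 and -0.16 when 1 library was left out, and in 5 of those 6 fits it missed the threshold, with an adjusted p of up to 0.137. The median of the 12 genes was -0.14, against 0.00 over all genes.

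The largest LPS responses on these lists were among the other costimulatory and coinhibitory ligands. Of the 13 tested, 11 rose and 0 fell, where 32.9% of all genes were called higher. On library totals 10 rose and 1 fell. Icam1, the adhesion ligand of LFA-1, went from 32.0, 35.3 and 40.3 CPM in Veh to 3937, 3554 and 3701 CPM in LPS (log2 fold change 6.70, SE 0.08). Tnfsf9 (4-1BB ligand) went from 3.21, 2.84 and 3.94 CPM to 321, 275 and 269 CPM (6.43, SE 0.10), and Tnfsf15 (TL1A) from 1.92, 1.52 and 1.85 CPM to 79.5, 75.1 and 68.6 CPM (5.38, SE 0.10). Icosl, the ligand of ICOS, went from 3.90 to 4.54 CPM to 169.6 to 209.7 CPM (5.47, SE 0.10). Tnfsf4 (OX40 ligand) had 4 reads in Veh and 518 in LPS, a ratio of 168 (95% interval 65.4 to 620, counting error only). Pvr (3.23), Cd200 (1.95) and Pvrl2 (1.78) also rose on the log2 scale.

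T0 lowered 5 of 12 tested ligands of this list and raised 0, where 1.83% of all genes were called lower and 1.35% higher. Tnfsf4 was at 14.7, 14.6 and 10.2 CPM in LPS and 5.18, 4.73 and 7.90 CPM in T0+LPS (log2 fold change -1.14, SE 0.18, edgeR adjusted p = 0.00210). Tnfsf9 was at 137, 179 and 189.9 CPM in T0+LPS (-0.77, SE 0.09, edgeR adjusted p = 0.000201) and Tnfsf15 at 40.0, 45.7 and 54.1 CPM (-0.67, SE 0.09, adjusted p = 0.000374). Pvr, the ligand of CD226 and TIGIT, was at 159, 146 and 159.7 CPM in LPS and 100.5, 114 and 119 CPM in T0+LPS (-0.48, SE 0.06, edgeR adjusted p = 0.000372). Icam1 was at 2691, 2948 and 3183 CPM in T0+LPS (-0.34, SE 0.06, edgeR adjusted p = 0.00242). In each of the 5 genes, all T0+LPS libraries were below all LPS libraries and above all Veh libraries. T0+LPS and LPS did not overlap in 19.1% of all genes tested. Icosl (0.11, SE 0.07) and Tnfrsf14 (0.00, SE 0.08), induced by LPS as well, were not called with T0.

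Of 14 tested class I presentation genes, 13 were called higher with LPS, where 32.9% of all genes were, and 0 lower, with a median log2 fold change of 0.25. On library totals 5 were called higher and 3 lower, with a median of -0.03, so most of these rises are relative to the bulk of genes. With T0 added, 0 of the 14 were called, and 1 was called lower on library totals. B2m, the light chain, rose by 0.20 (SE 0.05), the immunoproteasome subunit Psmb10 by 0.92 (SE 0.07) and the peptide transporter subunit Tap2 by 0.75 (SE 0.05) on the log2 scale. H2-K1 (0.68) and H2-D1 (0.20) are near copies of each other and their reads may be split. With T0, Tap2 was nearest to the threshold, at -0.19 (SE 0.05, edgeR adjusted p = 0.0508).

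**Figure D5:**
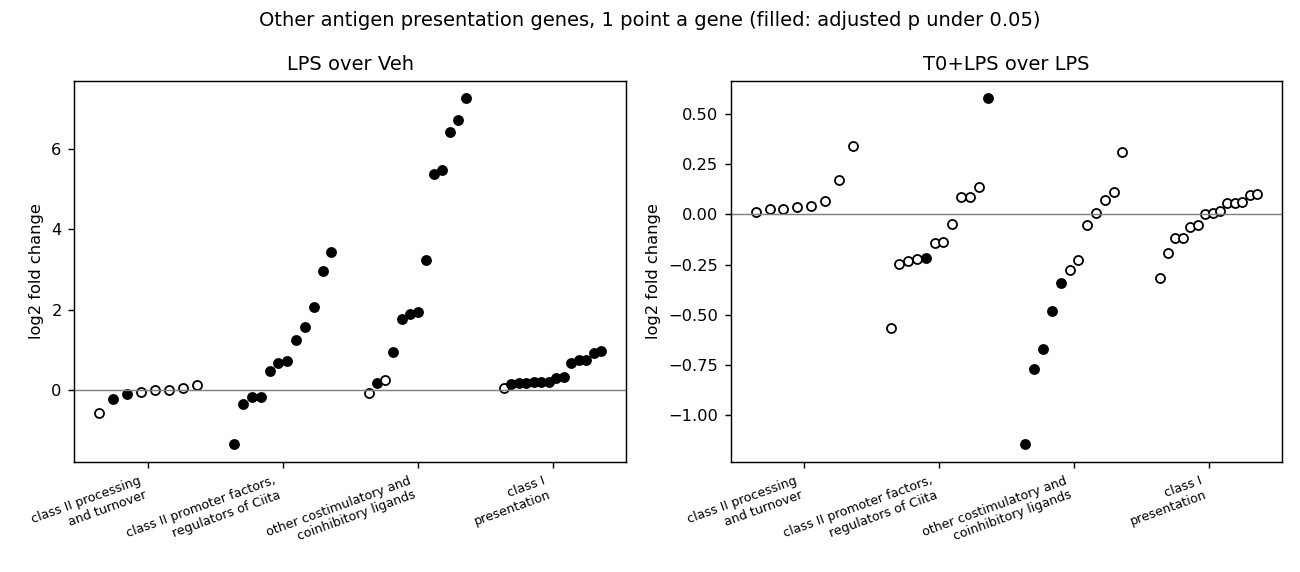
Log2 fold change of each tested gene of 4 further lists, for LPS over Veh on the left and T0+LPS over LPS on the right, with each list sorted and genes of an adjusted p under 0.05 filled. The costimulatory ligands reach 7.25 on the left and hold 5 of the 6 genes called lower on the right. The share of all genes called lower there was 1.83%. The vertical scales of the panels differ.

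The genes with the pattern most like each member over the 9 libraries were sought among 7291 genes tested in both comparisons with a mean of at least 5 CPM, by Pearson's r of log2 CPM and with the members themselves left out. The 9 libraries form 3 groups, and r takes in differences between groups and between single libraries alike. For Cd274 these were Rnd1 and Msr1 (both r = 0.999), for Cd80 Lrp12 (0.994) and Ruvbl1 (0.983), and for Cd86 Heatr3 and Bysl (both 0.972). Outside the set, H2-Aa was closest to Fars2 (0.913) and Dhx16 (0.891), H2-Ab1 to Rac1 (0.966) and Xab2 (0.963), and H2-Eb1 to 2310011J03Rik (0.948). The Cd74 exon was closest to Doc2a (0.883) and Dhrs11 (0.877), H2-DMa to Sergef (0.955) and Commd9 (0.942), and Ciita to Npdc1 (0.896) and Mad2l2 (0.853).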

How the data were processed

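Polyadenylated RNA of 9 BMDM libraries (Veh, LPS and T0+LPS, n = 3 each, grouped by the sample labels) was sequenced on a NextSeq instrument. Reads were trimmed with cutadapt, placed on mm10 transcripts with HISAT2, and reads per RefSeq transcript were tallied with featureCounts by the authors (submitters' processing notes). The deposited values are raw counts of reads per transcript row, not normalized. Of 32850 rows, 6696 have no base of their own and hold 0 reads, which is how reads on shared bases were found to be left out. The authors' comparison tables hold DESeq2 fold changes and p-values for the same libraries, or gene names alone, and were not used.

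Rows of one symbol were summed (24061 symbols). The main test was edgeR 4.0.16 (quasi-likelihood F test, TMM, filterByExpr, R 4.3.3), fitted separately to the 6 libraries of each comparison with group as the only term, and Benjamini-Hochberg adjusted over all genes tested (threshold 0.05). The standard error is the absolute log2 fold change divided by the root of F. Where groups are called separate, no CPM value of one reached those of the other. Alternatives were DESeq2 1.42.0, limma 3.58.1 with voom, other scalings and filters, transcript rows, 1 fit of all libraries, a replicate block and leaving out each library. The pipeline was tested on simulated counts.

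All 10 members were described in every library. Of the called genes on the other lists with a mean of at least 5 CPM over the 6 libraries, the 12 with the largest change per comparison were named by rule. Other genes of the lists were named after their values were seen. Marker genes were read as summed CPM. Some genes of the lists are not reported here. The members and lists were chosen with earlier results of these data known. No pair of libraries of a group agreed within sampling noise (chi-square per degree of freedom 2.80 to 7.20). Counting intervals are exact and cover counting error only.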

Additional observations from a re-analysis of the deposited data

How the results depend on the processing

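On library totals alone, LPS over Veh gave 2 members higher and 3 lower (H2-Aa, Cd74 and H2-DMa), 1696 genes higher and 5408 lower, and log2 fold changes of -0.21 for H2-Aa, -0.0079 for H2-Ab1 and -0.11 for H2-Eb1. The median of all genes moved from 0.00 to -0.28. With no filter, LPS over Veh gave 6 members higher (Cd40 and H2-Eb1 added), and T0+LPS over LPS gave 4 members higher (H2-Aa, H2-Ab1, H2-Eb1 and Cd74) and 1 lower (Cd80, adjusted p = 0.0497), with 225 genes higher and 285 lower. The cause was not tested. With transcript rows Ciita, read from its first exon alone, was at -0.27 in T0+LPS over LPS. In that comparison without LPS 2 and T0+LPS 1 together, chosen after seeing the data, Cd86 was at -0.020 and Ciita at 0.89.

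Leaving out 1 library gave 4 to 5 members higher and 0 to 2 lower for LPS over Veh (2 without LPS 2) and 0 to 0 either way for T0+LPS over LPS. All-gene calls were 2922 to 3165 higher and 2745 to 3044 lower with LPS. With T0 they were 59 to 167 higher and 82 to 191 lower, with 59 and 82 without LPS 1, 78 and 94 without T0+LPS 2, and 103 lower without T0+LPS 1. Ciita ranged from -0.64 to 0.19 with LPS and from -0.30 to 0.63 with T0, H2-Aa from -0.057 to 0.14 and from -0.0096 to 0.34, Cd86 with T0 from -0.0029 to 0.18 and Cd274 with T0 from -0.011 to 0.055.

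Same-numbered libraries did not deviate together (r = -0.022 to 0.060), so the numbers were not taken as pairs. With the replicate block, members stayed at 4 higher and 0 lower with LPS and 0 either way with T0, and all genes at 3053 higher and 2927 lower and at 155 higher and 230 lower. Ciita and Cd40 are limited by few reads, at 9 to 27 and 0 to 11 per library, counted on 686 and 101 unshared bases.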

Other observations

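Several genes of the pathway could not be read from this table because few of their bases belong to 1 transcript. Tapbp (tapasin, 3 unshared bases), Cd83 (7), Rfxank (30), Creb1 (42), Nfya (87) and Nfyc (139) stayed at or below 0.695 CPM in every library, so the absence of a call for them carries no information. Tap1 (84 bases, 0.588 to 1.39 CPM) and Jak2 (83 bases, 0.0661 to 1.75 CPM) passed the filter on few reads. Both were called higher with LPS, at log2 fold changes of 0.99 (SE 0.29) and 3.43 (SE 0.45).

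Irf1, an interferon-responsive activator of Ciita pIV, was counted only on the 1222 unshared bases of its 3 transcript rows. Its whole mRNA level was not measured. On those bases Irf1 went from 0.748 to 0.869 CPM in Veh to 5.56 to 6.70 CPM in LPS. In T0+LPS it was at 3.81 to 4.85 CPM, with a log2 fold change over LPS of -0.57 (SE 0.16, edgeR adjusted p = 0.0719). Nlrc5, the class I counterpart of Ciita, changed by 0.19 with LPS (SE 0.08, edgeR adjusted p = 0.0462). Mertk, an LXR-induced gene on the macrophage marker list, was at 60.4 to 61.9 CPM in Veh, 34.0 to 36.1 CPM in LPS and 70.0 to 76.9 CPM in T0+LPS. It was the 1 macrophage marker called with T0.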
